A study of Mus musculus with 12 samples.

Results

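Integrins and laminins are the receptors and ligands through which islet cells hold on to the surrounding basement membrane. The genes of both families were followed in bulk RNA-seq of pancreatic islets, the endocrine cell clusters of the pancreas. Members were chosen by symbol alone, with earlier results of these data known. Of the 37991 genes counted, 37 had a mouse symbol made of Itga or Itgb, or of Lama, Lamb or Lamc, followed by a number or, for integrin α subunits, a letter such as v or x. They comprised 26 integrin genes (18 α subunits and 8 β subunits) and 11 laminin genes (5 α chains, 3 β chains and 3 γ chains). The islets came from male Tg7 mice, which carry a transgene that overexpresses miR-7a2 in β-cells, and from their wild-type littermates (Wt), all on the C57BL/6 strain. Both genotypes were sampled at 2 weeks of age (2w) and at 12 weeks of age (12w), with 3 libraries in each of the 4 groups. The 4 groups were thus Wt islets at 2w, Tg7 islets at 2w, Wt islets at 12w and Tg7 islets at 12w. Every library was made from the islets of several pooled animals, so p values measure the spread between these 12 pools and not between single mice. Which promoter drives the transgene is not stated in the labels or methods, and all islet cells, not β-cells alone, contributed RNA.

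An integrin is a pair of 1 α and 1 β subunit in the plasma membrane, and the pair decides which matrix protein is bound. Pairs with β1 include receptors for fibronectin (α5 and α4), for collagens (α1, α2, α10 and α11) and for laminins (α3, α6 and α7). Integrin αv pairs with β1, β3, β5, β6 or β8 and binds proteins with an RGD motif such as vitronectin and fibronectin, and several of these pairs release TGFβ from its latent form. Integrin α6β4 anchors epithelial cells to laminin, and the αL, αM, αX, αD, αE, β2 and β7 subunits belong to leukocytes. A laminin is a cross-shaped trimer of 1 α, 1 β and 1 γ chain. Laminins with the α4 or α5 chain form the basement membrane of blood vessels, and in mouse islets much of the laminin that β-cells meet is made by the endothelium.

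Total counts per library ranged from 11610697 to 17515758. The insulin genes Ins1 and Ins2 took up between 1.84% and 30.0% of the counts of a library, and TMM factors, which correct for such composition, ranged from 0.684 to 1.19. A pair of libraries stood apart from the others of their group. In Wt 12w replicate 4, insulin took up 14.9% of counts against 27.0% and 30.0% in the other Wt libraries at 12w. In Tg7 2w replicate 1, the summed level of 8 T and NK lymphocyte markers was 18.6 CPM against 1.17 and 1.54 CPM in the other Tg7 libraries at 2w, and that of 4 B lymphocyte markers was 23.3 CPM. Levels are given as CPM, the counts of a gene scaled to the TMM-corrected library size. A gene is called changed when its adjusted p is under 0.05 in edgeR's quasi-likelihood test, with Benjamini-Hochberg adjustment over the 15961 genes that passed the filter on low counts. All adjusted p values below are from that test unless another tool is named. Of the 37 members 33 passed the filter, 23 integrins and 10 laminins, and Itga11, Itgad, Itgam and Lamb3 did not.

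The transgene raises miR-7a, so the 3′UTRs of the members were searched for matches to its seed, and the miRNA and 1 matched site of each member that rose in Tg7 islets and had a match are shown here (for Itga4, the only one of its 5 that held both forms of match, defined below). In the mature sequence of miR-7a-5p (RefSeq, GRCm38.p6) the seed, bases 2 to 8, is in capitals. In the sites, read from mm9 in the direction of the transcript, the matched letters are in capitals: bases that pair with the seed and, in Itga4 and Lamc1, the A that follows them opposite base 1 of the miRNA.

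miR-7a-5p: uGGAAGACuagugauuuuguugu

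Itga4 3′UTR, chr2:79169383-79169390, plus strand: actgctacactactGTCTTCCAcagc

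Itga7 3′UTR, chr10:128395188-128395194, plus strand: accctgtaaaacctGTCTTCCccaa

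Lamc1 3′UTR, chr1:155068334-155068340, minus strand: ctgaagtcacggcaTCTTCCAgggg

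A match was GTCTTCC (pairing with all of the seed), or TCTTCCA (pairing with bases 2 to 7 and followed by A), on the strand of the transcript. A site that held both, GTCTTCCA, was counted once, as in Itga4. At least 1 match was present in the annotated 3′UTR of 10 of the 37 members (27%), compared with 21.5% of the 20007 genes with an annotated 3′UTR. Among integrins 8 of 26 had a match (30.8%), and among laminins 2 of 11 (18.2%), where the median 3′UTR was 350 bases against 1296.5 in integrins. Itga4 had the largest number, 5 matches in a 3′UTR of 6508 bases. Of the 12 members that rose in Tg7 islets at 12w, 3 had a match, Itga4, Itga7 and Lamc1, beside the 27% of all members. Of the 2 that fell, Itgav and Itgb5, 0 had a match, and numbers this small show no difference by direction. The median log2 fold change over Wt at 12w was 0.28 in tested members with a match and 0.50 in those without, and at 2w it was 0.25 and 0.28. A match describes these letters only, and whether miR-7 acts on any site was not tested.

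At 2w, 6 of the 23 tested integrins changed in Tg7 islets and none of the 10 tested laminins did, against 10.6% of all tested genes (6.07% higher and 4.55% lower in Tg7). Of these 10 laminins, 1 had an unadjusted p under 0.05 in edgeR, and DESeq2 called 0. Itga4, Itga5, Itgb3, Itgb4 and Itgb6 rose and Itgb5 fell. At 12w, 8 of 23 integrins and 6 of 10 laminins changed, against 23.6% of all tested genes (12.5% higher and 11.2% lower). Itga1, Itga4, Itga5, Itga7, Itgb3 and Itgb4 rose among the integrins, and Itgav and Itgb5 fell. Lama2, Lama5, Lamb1, Lamb2, Lamc1 and Lamc3 rose among the laminins, and none fell. The balance of rises and falls depended on the scaling: with library size alone in place of TMM factors, 7 integrins were called higher and 0 lower at 2w, and 10 higher and 1 lower at 12w. That setting moved the median log2 fold change of all tested genes to 0.19 at 2w and 0.43 at 12w. These counts thus carry a shift of the whole table, and the matching share of all genes is not given here. Of the 15 members called at either age, 5 were called at both, each in the same direction at both ages. The median log2 fold change over Wt was 0.44 at 2w and 0.30 at 12w in integrins and 0.16 and 0.64 in laminins, beside 0.03 and −0.01 in all tested genes. By ranges of the libraries, 9 members lay higher and 1 lower in every Tg7 library at 2w, where 35.9% of all tested genes did not overlap between genotypes (17.8% higher and 18.1% lower in Tg7). At 12w 15 members lay higher and 4 lower without overlap, against 37.1% of all tested genes (20.7% higher and 16.3% lower). In bulk islets, fewer cells of a type and less RNA per cell cannot be told apart, and this holds for every change below.

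**Figure D1:**
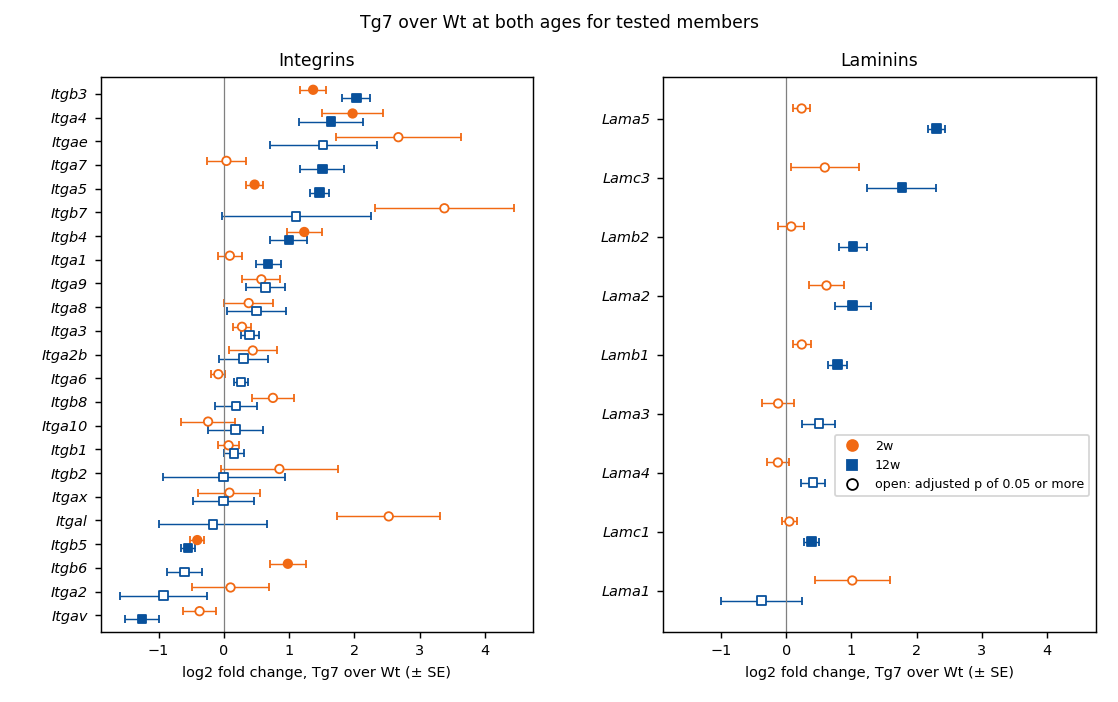
Log2 fold change of Tg7 over Wt islets with its standard error (x axis) for the 23 tested integrins (left) and 9 of the 10 tested laminins (right), with orange circles for 2w and blue squares for 12w. Filled symbols are members called at an adjusted p under 0.05. The laminins show filled symbols at 12w only, led by Lama5 at 2.30, while Itga4, Itga5, Itgb3, Itgb4 and Itgb5 are filled at both ages.

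Integrin β3 was the member of the αv partners that differed most between genotypes. Itgb3 (chr11:104469370-104531790, mm9) encodes the β subunit of the vitronectin receptor αvβ3. Its level was 9.20, 7.07 and 8.99 CPM in the Wt libraries at 2w and 25.9, 17.3 and 22.1 CPM in the Tg7 libraries. In Wt islets of 12w it was 5.67, 5.72 and 3.73 CPM and in Tg7 islets 18.5, 21.6 and 21.2 CPM. Every Tg7 library lay above every Wt library at both ages. The log2 fold change was 1.37 ± 0.20 (SE) at 2w, with an adjusted p of 0.000873, and 2.03 ± 0.22 at 12w, with an adjusted p of 2.03e-05. Both calls were made under all alternative settings and with each of the 12 libraries left out in turn.

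Itgb5 moved the other way. It encodes the β subunit of αvβ5, also a vitronectin receptor, and lies at chr16:33829751-33949239. Its level was 73.9, 68.9 and 67.0 CPM in Wt islets at 2w and 50.5, 55.5 and 52.4 CPM in Tg7 islets. The Wt libraries of 12w had 53.3, 62.6 and 60.9 CPM and the Tg7 libraries 41.0, 39.5 and 40.4 CPM, again without overlap. On the log2 scale the fold change was −0.41 ± 0.11 at 2w (adjusted p = 0.0259) and −0.55 ± 0.11 at 12w (adjusted p = 0.00215). These falls rested on the scaling. With library size alone, which put the median of all tested genes at 0.19 instead of 0.03 at 2w and at 0.43 instead of −0.01 at 12w, the log2 fold changes of Itgb5 were −0.24 and −0.11 and neither was called. The 2w call also fell away when any Wt library of 2w or Tg7 2w replicate 1 or 3 was left out, with log2 fold changes of −0.37 to −0.44, and when low counts were not filtered (adjusted p = 0.0613).

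Itgb6 encodes the β subunit of αvβ6, an epithelial integrin that activates latent TGFβ, and lies at chr2:60436349-60560700. At 2w its level was 8.96, 5.97 and 11 CPM in Wt islets and 15.3, 15.1 and 21.1 CPM in Tg7 islets, a log2 fold change of 0.98 ± 0.27 (adjusted p = 0.036). At 12w it was 22.2, 12.2 and 11.6 CPM in Wt islets and 11.2, 8.74 and 10.0 CPM in Tg7 islets, with a log2 fold change of −0.60 ± 0.27 that was not called (adjusted p = 0.132). The libraries of the genotypes did not overlap at either age, with Tg7 above Wt at 2w and below it at 12w. The difference between the effects at 12w and 2w was −1.59 ± 0.39, with an adjusted p of 0.0723. In DESeq2 the difference was called (−1.60, adjusted p = 0.00591). The 2w call fell away when Tg7 2w replicate 3, any Tg7 library of 12w or Wt 2w replicate 1 or 2 was left out, with log2 fold changes between 0.77 and 1.0. Without a Tg7 library of 12w the 2w estimate stayed at 0.98, and the adjusted p was 0.052 to 0.0526.

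The shared α subunit of these pairs, Itgav (chr2:83564554-83647073), fell at 12w. At 2w its level was 140, 98.1 and 138 CPM in Wt islets and 122, 88.5 and 80.6 CPM in Tg7 islets, a log2 fold change of −0.37 ± 0.25 (adjusted p = 0.373). At 12w it was 169, 139 and 309.6 CPM in Wt islets and 91.3, 85.9 and 82.4 CPM in Tg7 islets, a log2 fold change of −1.25 ± 0.25 (adjusted p = 0.00297). The highest Wt value came from replicate 4, the library with the low insulin share. Without it the log2 fold change was −0.83 (adjusted p = 0.00438), so the call remained while its size fell. Exons of Itgav share 5.9% of their bases with Gm13684 on the opposite strand, and whether reads were counted by strand is not stated.

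Itgb8, the last αv partner, was not called for genotype at either age, with log2 fold changes of 0.75 ± 0.32 at 2w (adjusted p = 0.15) and 0.19 ± 0.32 at 12w (adjusted p = 0.724). To compare the partners with each other, levels were divided by the exon length of each gene. Per kilobase, Itgb5 led the group of β3, β5, β6 and β8 in all 4 groups, with a mean of 20.8 CPM per kb in Wt islets at 2w and 12.0 CPM per kb in Tg7 islets at 12w. The ratio of Itgb3 to Itgb5 per kilobase was 0.0693 ± 0.00933 in Wt and 0.239 ± 0.0579 in Tg7 islets at 2w (SD, n = 3), and 0.0496 ± 0.0132 in Wt against 0.292 ± 0.0287 in Tg7 islets at 12w. In an exact two-sided permutation test, p was 0.1 at each age, the smallest value that 3 against 3 libraries can give. Every Tg7 library lay above every Wt library for Itgb3 and below for Itgb5. That outcome was therefore fixed by the levels above and adds no support to them. The ratio of Itgav to Itgb1 was 0.308 ± 0.0524 in Wt and 0.120 ± 0.00109 in Tg7 islets at 12w (SD, n = 3, exact permutation p = 0.1). The 12w outcome of this ratio likewise followed from the levels of Itgav and adds no support to them. At 2w it was 0.154 ± 0.0269 in Wt and 0.112 ± 0.0129 in Tg7 islets (exact permutation p = 0.2).

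**Figure D2:**
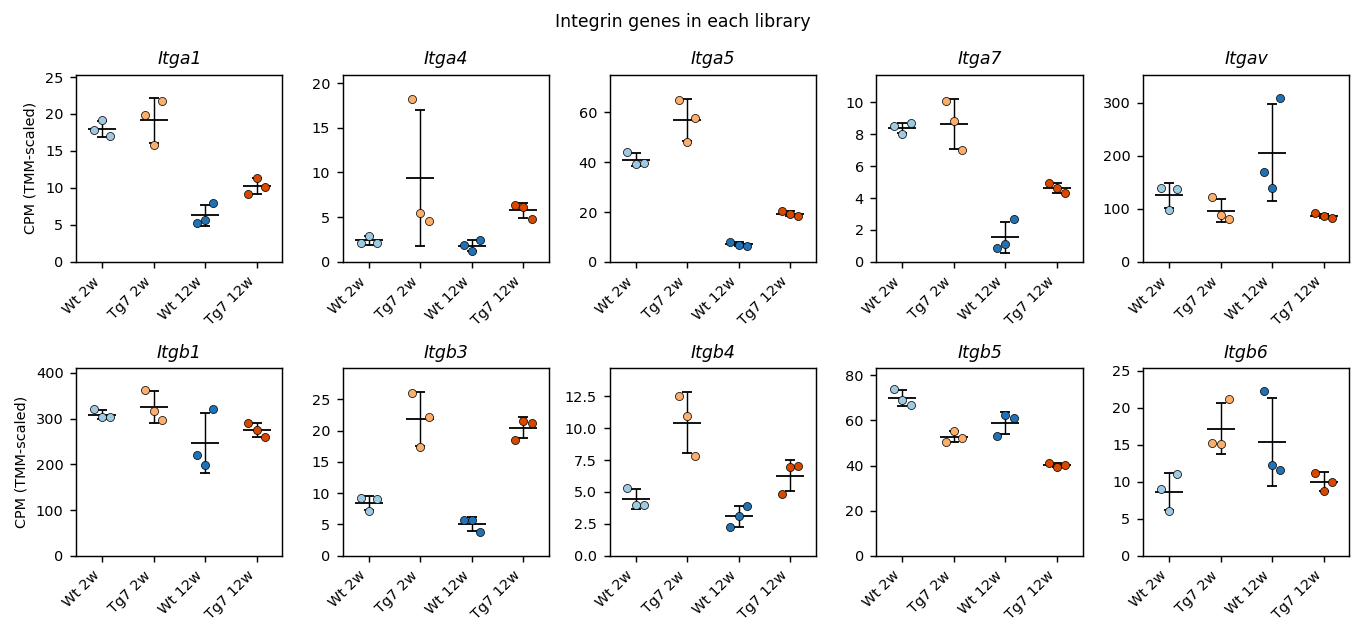
Level of 10 integrin genes in each library, in CPM after TMM scaling, with points for single libraries, bars for the mean and whiskers for the SD of 3 libraries per group. Itgb3 is higher in all Tg7 libraries at both ages, Itga5 falls with age in both genotypes, and single libraries stand out for Itga4 (Tg7 at 2w, 18.2 CPM) and Itgav (Wt at 12w, 309.6 CPM).

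Of the α subunits that bind fibronectin with β1, Itga5 and Itga4 rose at both ages, although both 2w calls were lost in some fits without 1 library. Itga5 (chr15:103174720-103197194) encodes the α subunit of α5β1, the classical fibronectin receptor. At 2w it was at 44.3, 39.5 and 39.6 CPM in Wt islets and at 65.0, 48.3 and 57.8 CPM in Tg7 islets. At 12w the Wt libraries had 7.94, 6.67 and 6.53 CPM and the Tg7 libraries 20.2, 19.4 and 18.4 CPM. The genotypes did not overlap at either age, and the distance was wider at 12w. The log2 fold change was 0.47 ± 0.14 at 2w (adjusted p = 0.0399) and 1.46 ± 0.15 at 12w (adjusted p = 1.48e-05), and the difference between the effects, 0.99 ± 0.20, was called (adjusted p = 0.0289, against 1.18% of all tested genes, 0.871% higher and 0.307% lower). Whereas the 12w call held without any single library, the 2w call fell away when any Wt library of 2w, any Tg7 library of 12w or Tg7 2w replicate 1 or 3 was left out (log2 fold changes of 0.37 to 0.52), and when low counts were not filtered (adjusted p = 0.0724). Without a Tg7 library of 12w the 2w estimate stayed at 0.47, and the adjusted p was 0.061 to 0.0655. The call of the difference fell away when any Wt library of 2w, any Tg7 library of 12w or Tg7 2w replicate 2 or 3 was left out (0.89 to 1.04).

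Itga4 (chr2:79095583-79173280), the α subunit of the VCAM1 and fibronectin receptors α4β1 and α4β7, is at home on leukocytes. Its level at 2w was 2.14, 2.95 and 2.13 CPM in Wt islets and 18.2, 5.52 and 4.52 CPM in Tg7 islets. By 12w it was 1.89, 1.19 and 2.40 CPM in Wt islets and 6.37, 6.14 and 4.75 CPM in Tg7 islets. All Tg7 libraries lay above all Wt libraries, and 1 Tg7 library at 2w, replicate 1, lay far above the others. The log2 fold change was 1.97 ± 0.47 at 2w (adjusted p = 0.0156) and 1.64 ± 0.49 at 12w (adjusted p = 0.0254). Without Tg7 2w replicate 1, in which the T, NK and B lymphocyte markers were highest, the 2w value was 1.07 (adjusted p = 0.0576) and the call was lost. Leaving out Wt 2w replicate 1 or 3 had the same outcome (1.89 each), and the 12w call fell away when replicate 1 or 2 of either genotype at 12w was left out (1.40 to 1.64). At 12w the summed level of the T and NK markers did not exceed 0.507 CPM in any Tg7 library and 1.01 CPM in any Wt library. The B lymphocyte markers summed to 1.86 to 5.92 CPM in Tg7 and 5.87 to 10.5 CPM in Wt islets at 12w. Macrophage markers summed to 86.6 to 92.1 CPM in Tg7 and 97.2 to 111 CPM in Wt islets. The part of leukocytes in the level of Itga4 was not tested. Exons of Itga4 share 8.04% of their bases with Cerkl on the opposite strand.

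The leukocyte integrins Itgal, Itgam, Itgax, Itgad, Itgae, Itgb2 and Itgb7 were low. Summed, they ranged from 3.03 to 6.11 CPM in Wt and from 3.96 to 29.4 CPM in Tg7 islets at 2w, and stayed at or below 8.01 CPM at 12w. The highest sum again came from Tg7 2w replicate 1. In that library Itgal was at 11.7 CPM against 1.82 and 1.14 CPM in the other Tg7 libraries at 2w, and Itgb7 was at 5.39 CPM against 0.0649 and 1.14 CPM. None of the 5 tested genes of this kind was called at either age in edgeR, where 3 had an unadjusted p under 0.05 at 2w and 0 at 12w. DESeq2 called 2 at 2w and 0 at 12w. Their 2w log2 fold changes reached 3.38 ± 1.06 in Itgb7 (adjusted p = 0.0561) and 2.53 ± 0.79 in Itgal (adjusted p = 0.0553). DESeq2 put Itgal at 2.54 at 2w (adjusted p = 0.0114). Itgam, with 21 counts over the Wt and 42 over the Tg7 libraries at 2w and 10 and 16 at 12w, and Itgad, with 2 and 1 counts at 2w and 5 and 1 at 12w, were too low to be tested. Macrophage markers, 10 genes in all, had 1 member that rose at 2w, Lyz2, and 1 that fell at 12w, Csf1r. These are 10% at each age, not above the 10.6% and 23.6% of all tested genes.

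Among the laminin receptors, the changes with genotype were in Itga7 and Itgb4. Itga7 (chr10:128370869-128395333) encodes the α subunit of α7β1, known from muscle. At 2w it was at 8.48, 8.03 and 8.67 CPM in Wt islets and at 10.1, 8.83 and 7.0 CPM in Tg7 islets, which overlapped (log2 fold change 0.04 ± 0.30, adjusted p = 0.948). By 12w it was at 0.882, 1.11 and 2.67 CPM in Wt islets and at 4.96, 4.65 and 4.29 CPM in Tg7 islets, without overlap and with a log2 fold change of 1.51 ± 0.34 (adjusted p = 0.00534). The highest Wt value was that of replicate 4, without which the log2 fold change was 2.19. The difference between the effects at the 2 ages was 1.47 ± 0.45 and was not called (adjusted p = 0.145), but without Wt 12w replicate 4 it was 2.15 (adjusted p = 0.00657), and DESeq2 called it at 1.45 (adjusted p = 0.0389).

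Itgb4 (chr11:115836023-115869726), the partner of α6 in hemidesmosomes, was at 5.34, 3.98 and 3.99 CPM in Wt islets and 12.5, 11 and 7.85 CPM in Tg7 islets at 2w. Libraries of 12w had 2.27, 3.10 and 3.93 CPM in Wt islets and 4.85, 6.97 and 7.04 CPM in Tg7 islets. The genotypes were separate at both ages, with Tg7 higher. Log2 fold changes were 1.23 ± 0.27 at 2w (adjusted p = 0.0105) and 1.0 ± 0.28 at 12w (adjusted p = 0.0207). The 2w call needed Wt 2w replicate 3 (1.16 when it was left out), and the 12w call needed Wt 12w replicate 1 and Tg7 12w replicates 2 and 3 (0.81 to 0.92). Its α partner Itga6 was not called, at −0.08 ± 0.11 at 2w (adjusted p = 0.673) and 0.26 ± 0.11 at 12w (adjusted p = 0.109). Itga3, the α subunit of α3β1, missed the threshold at 12w with 0.40 ± 0.14 on the log2 scale (adjusted p = 0.0509). Exons of Itgb4 share 7.66% of their bases with the noncoding B230344G16Rik on the opposite strand.

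Of the collagen receptors, Itga1 rose at 12w. Itga1 (chr13:115748287-115892172) pairs with β1 and binds the collagen IV of basement membranes. Its level at 12w was 5.29, 5.72 and 7.93 CPM in Wt islets and 9.19, 11.3 and 10.1 CPM in Tg7 islets, against 17.8, 19.2 and 17.0 CPM in Wt and 19.8, 15.8 and 21.8 CPM in Tg7 islets at 2w. The genotypes overlapped at 2w and not at 12w. The log2 fold change was 0.09 ± 0.18 at 2w (adjusted p = 0.793) and 0.68 ± 0.19 at 12w (adjusted p = 0.0212). This call needed Wt replicates 1 and 2 and Tg7 replicates 2 and 3 of 12w (0.55 to 0.69 when 1 of them was left out). Itga2 and Itga10 were not called for genotype, and the counts of Itga10 are uncertain because its exons overlap in part with other annotation. Itga11 had 10 counts over the 3 Wt libraries and 37 over the 3 Tg7 libraries at 2w, a ratio of 3.36 after scaling (95% exact interval for counting error only, 1.64 to 7.57), and 0 and 3 counts at 12w.

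Itgb1, which pairs with most α subunits, was the most abundant integrin per kilobase in all 4 groups, at a mean of 70.8 CPM per kb over all libraries. Its level was 321, 303 and 303 CPM in Wt islets and 364, 316 and 296 CPM in Tg7 islets at 2w. By 12w it was 221, 198 and 320.4 CPM in Wt islets and 290.1, 275 and 259.5 CPM in Tg7 islets. The genotypes overlapped at both ages, and the log2 fold changes were 0.07 ± 0.16 at 2w (adjusted p = 0.811) and 0.16 ± 0.16 at 12w (adjusted p = 0.533). Without Wt 12w replicate 4, however, the 12w value was 0.40 and called (adjusted p = 0.0208). The remaining tested integrins, Itga2b, Itga8 and Itga9, were called for genotype at neither age. Their log2 fold changes lay between 0.30 and 0.64 at 12w.

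Among the tested laminins, Lama5 had the largest fold change between genotypes at 12w. Lama5 (chr2:179911078-179960564) encodes the α5 chain of laminins α5β1γ1 and α5β2γ1, the main laminins of mature vascular and epithelial basement membranes. At 2w it was at 51.8, 51.3 and 52.8 CPM in Wt islets and at 66.6, 63.8 and 53.3 CPM in Tg7 islets. The libraries did not overlap at 2w either, but the difference was not called (log2 fold change 0.24 ± 0.13, adjusted p = 0.248). At 12w it was at 13.4, 15.6 and 14.9 CPM in Wt islets and at 77.0, 62.1 and 77.6 CPM in Tg7 islets. No Tg7 library at 12w was below 62.1 CPM and no Wt library above 15.6 CPM. The log2 fold change at 12w was 2.30 ± 0.14 (adjusted p = 1.55e-07), and it exceeded that at 2w by 2.07 ± 0.18 (adjusted p = 7.4e-05). Both calls held under all alternative settings and with each library left out in turn. Between 2w and 12w Lama5 fell in Wt islets by 1.83 ± 0.13 on the log2 scale (adjusted p = 1.3e-06), whereas in Tg7 islets the change with age was 0.24 ± 0.13 and was not called (adjusted p = 0.239). These contrasts share libraries and are not independent of each other.

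The β1 and β2 chains rose at 12w. Lamb1 (chr12:31950099-32014509) was at 16, 20.5 and 20.5 CPM in Wt islets and 29.4, 38.9 and 30.3 CPM in Tg7 islets. Lamb2 (chr9:108382193-108392861), the β chain of laminin α5β2γ1, was at 5.92, 12.1 and 11.5 CPM in Wt islets and 19.2, 21.7 and 20.2 CPM in Tg7 islets. Neither overlapped between genotypes at 12w. The log2 fold changes were 0.78 ± 0.15 for Lamb1 (adjusted p = 0.00192) and 1.02 ± 0.21 for Lamb2 (adjusted p = 0.00339), and both calls held without any single library. At 2w the libraries overlapped, Lamb1 with 96.3, 77.1 and 86.3 CPM in Wt and 99.8, 95.4 and 111 CPM in Tg7 islets, and Lamb2 with 22.8, 25.9 and 22.1 CPM in Wt and 27.9, 22.4 and 24.4 CPM in Tg7 islets. Their log2 fold changes at 2w were 0.24 ± 0.14 (adjusted p = 0.303) and 0.08 ± 0.20 (adjusted p = 0.849). Lamb3, a β chain of epithelial laminin, was too low to be tested, with 14 counts over the Wt and 41 over the Tg7 libraries at 2w and 1 and 31 counts at 12w. Its ratio at 12w was 20.7 after scaling, with an exact 95% counting interval of 3.44 to 842.

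Lamc1 and Lamc3 rose among the γ chains. Lamc1 (chr1:155066052-155179916), the γ chain of most laminins, was the most abundant laminin per kilobase, at a mean of 13.1 CPM per kb over all libraries. It was at 152, 145 and 149.6 CPM in Wt and 164, 151 and 146 CPM in Tg7 islets at 2w, which overlapped (0.05 ± 0.11, adjusted p = 0.823). At 12w the Wt libraries had 53.4, 53.8 and 64.9 CPM and the Tg7 libraries 77.7, 76.6 and 71.1 CPM. The libraries did not overlap at 12w, and the log2 fold change of 0.39 ± 0.11 (adjusted p = 0.023) was the smallest among the called laminins. This call fell away when replicate 1 or 2 of either genotype at 12w was left out (0.31 to 0.38), and when low counts were not filtered (adjusted p = 0.0589).

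Lamc3 (chr2:31742811-31802059), a γ chain of restricted distribution, had 1.76, 0.953 and 0.867 CPM in Wt islets and 3.04, 3.10 and 5.78 CPM in Tg7 islets at 12w. At 2w it had 0.89, 0.368 and 1.65 CPM in Wt and 1.28, 2.14 and 1.09 CPM in Tg7 islets. Tg7 libraries were separate from Wt libraries at 12w only. Log2 fold changes were 0.59 ± 0.53 at 2w (adjusted p = 0.514) and 1.77 ± 0.53 at 12w (adjusted p = 0.0267). At these low levels the call needed Wt 12w replicates 2 and 4 and Tg7 12w replicate 3 (1.40 to 1.64 when 1 of them was left out). Exons of Lamc3 share 6.27% of their bases with Gm13441 on the opposite strand.

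Lama2 (chr10:26701094-27336748), the α chain of the mesenchymal laminin α2β1γ1, had 4.29, 3.97 and 7.07 CPM in Wt islets and 9.64, 11.3 and 10.5 CPM in Tg7 islets at 12w. At 2w it had 9.02, 6.19 and 5.96 CPM in Wt and 14.2, 8.90 and 9.34 CPM in Tg7 islets. The genotypes overlapped at 2w (0.62 ± 0.27, adjusted p = 0.153) and not at 12w, where the log2 fold change was 1.02 ± 0.28 (adjusted p = 0.0161). The 12w call needed Wt 12w replicates 1 and 2 and Tg7 12w replicate 2 (0.86 to 0.96 when 1 of them was left out). Lama4, the α chain of the other vascular laminins, was called for genotype at neither age. It had 5.17, 6.11 and 6.73 CPM in Wt and 6.71, 9.96 and 7.44 CPM in Tg7 islets at 12w (0.41 ± 0.19, adjusted p = 0.135). Lama1 and Lama3 were called at neither age.

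**Figure D3:**
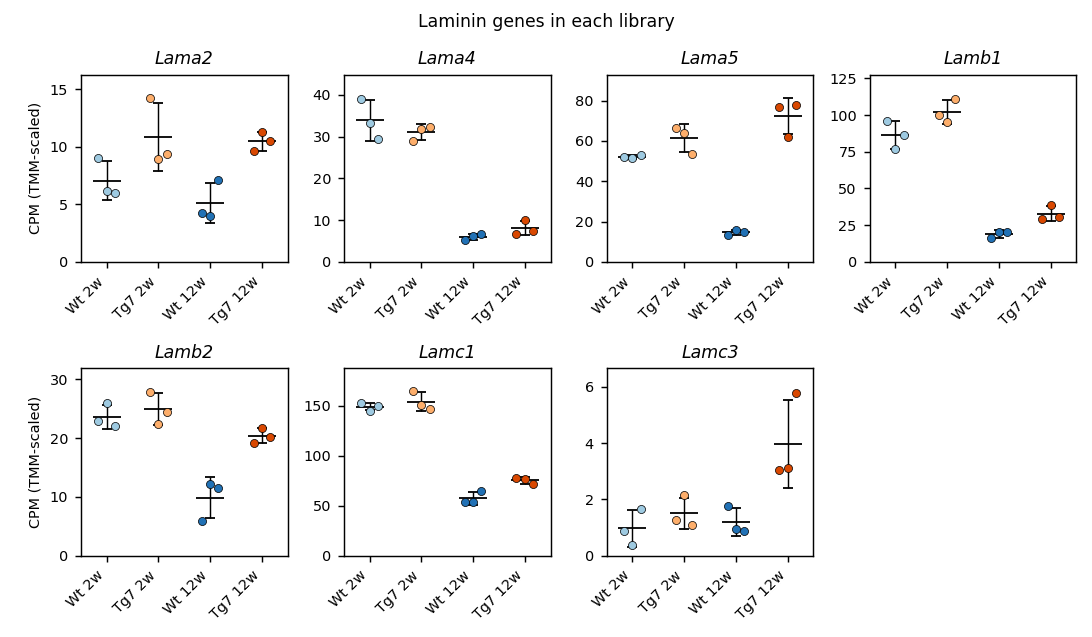
Level of 7 laminin genes in each library, in CPM after TMM scaling, with points for single libraries, bars for the mean and whiskers for the SD of 3 libraries per group. Most chains are lower at 12w than at 2w in Wt islets, and Lama5 in Tg7 islets at 12w, at 62.1 to 77.6 CPM, overlaps with its level at 2w (53.3 to 66.6 CPM).

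Per kilobase, the α chains together were less abundant than the β chains in 3 of the 4 groups, the exception being Tg7 islets at 12w. Their sum was 8.98 ± 0.695 CPM per kb in Wt and 9.94 ± 0.672 in Tg7 islets at 2w, and 2.91 ± 0.477 in Wt and 8.89 ± 0.507 in Tg7 islets at 12w (SD, n = 3). The β chains summed to 13.0 ± 0.752 and 14.9 ± 1.04 CPM per kb at 2w and to 3.68 ± 0.875 and 7.07 ± 0.806 at 12w. In Wt islets at 12w the α5 chain made up 44.6% of the summed α chains, and in Tg7 islets 71.1%. The ratio of Lama5 to Lama4 per kilobase was 2.59 ± 0.219 in Wt and 9.93 ± 2.94 in Tg7 islets at 12w, and 1.65 ± 0.251 and 2.1 ± 0.348 at 2w (SD, n = 3). In exact two-sided permutation tests p was 0.1 at 12w, the smallest possible, and 0.2 at 2w. The ratio of Lama5 to Lamc1 was 0.186 ± 0.0221 in Wt and 0.70 ± 0.103 in Tg7 islets at 12w (n = 3, exact permutation p = 0.1). For both ratios the 12w outcome was fixed by the levels of Lama5 above and adds no support to them. At 2w it was 0.253 ± 0.00548 in Wt and 0.288 ± 0.0218 in Tg7 islets, with the same exact permutation p of 0.1.

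**Figure D4:**
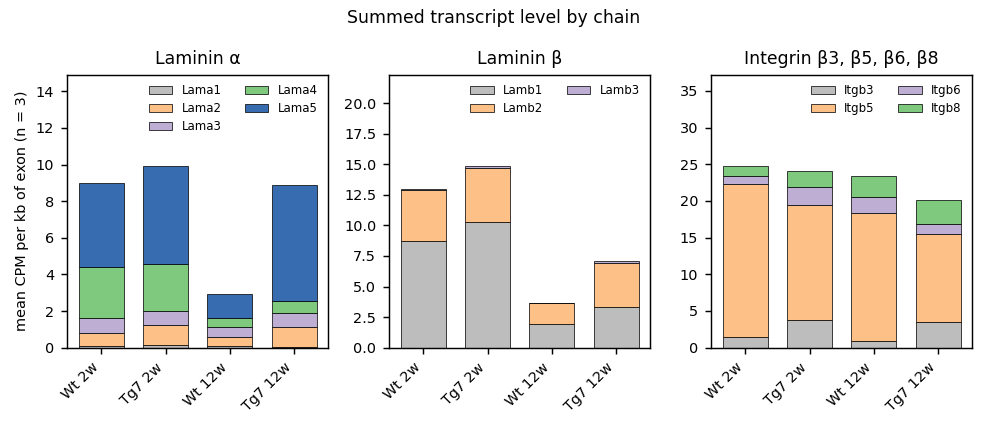
Mean level per kilobase of exon (y axis, CPM per kb, 3 libraries per group) of the laminin α and β chains and of the integrin subunits β3, β5, β6 and β8, stacked by gene. The α5 segment (Lama5, blue) is small in Wt islets at 12w and large in Tg7 islets at 12w, and the β3 segment (Itgb3, grey) is larger in Tg7 islets at both ages.

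With age, most members that changed in Wt islets fell. Between 2w and 12w, 7 of 23 integrins and 5 of 10 laminins changed in Wt islets, against 15.8% of all tested genes (7.9% higher and 7.91% lower at 12w). Itga5 fell by 2.55 ± 0.15 on the log2 scale (adjusted p = 2.63e-07), Itga7 by 2.37 ± 0.34, Itga8 by 2.03 ± 0.43, Itga1 by 1.49 ± 0.19, Itga6 by 1.12 ± 0.11 and Itgb3 by 0.76 ± 0.22, while Itgb8 rose by 1.04 ± 0.32. With library size alone, where the median of all tested genes was −0.35, 0 integrins rose and 9 fell. The call of Itgb3 needed Wt 2w replicates 1 and 3 and Wt 12w replicate 4 (−0.57 to −0.71 when 1 of them was left out). That of Itgb8 was lost in 9 of the 12 fits without 1 library (0.53 to 1.24), among them the fit without Wt 12w replicate 4. Nor was it made with library size alone. Among laminins, Lama4 fell by 2.48 ± 0.19, Lamb1 by 2.18 ± 0.15, Lama5 by 1.83 ± 0.13, Lamc1 by 1.37 ± 0.11 and Lamb2 by 1.24 ± 0.21. In Tg7 islets 6 integrins and 3 laminins changed with age, against 13% of all tested genes (7.02% higher and 6.01% lower), and each of them fell. They were Itga1 (−0.91 ± 0.18), Itga2 (−2.06 ± 0.64), Itga5 (−1.56 ± 0.14), Itga6 (−0.78 ± 0.11), Itga8 (−1.91 ± 0.40) and Itgb5 (−0.39 ± 0.11) among the integrins, and Lama4 (−1.95 ± 0.18), Lamb1 (−1.64 ± 0.15) and Lamc1 (−1.03 ± 0.11) among the laminins. The call of Itga2 (adjusted p = 0.0498) was lost in 10 of the 12 fits without 1 library and was not made with library size alone. In the fits without a Wt library of 2w its log2 fold change stayed at −2.05, and the adjusted p was 0.0654 to 0.073. That of Itgb5 needed Tg7 2w replicates 2 and 3 and all Tg7 libraries of 12w, and was not made when low counts were not filtered. Without Wt 12w replicate 4, 10 integrins changed with age in Tg7 islets, and the share of all tested genes in that fit is not given here.

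Counts of the families are set side by side with those of all tested genes, of which 10.6% were called at 2w and 23.6% at 12w. Laminins gave 0 calls at 2w and 6 of 10 at 12w (60%), whereas integrins gave 6 of 23 (26.1%) at 2w and 8 of 23 (34.8%) at 12w, with falls as well as rises. Whether the families differ was not tested as such, since members are not replicates. Summed per kilobase, laminins amounted to 31.2% ± 0.793 of the integrins in Wt and 31.0% ± 0.918 in Tg7 islets at 2w, and to 20.8% ± 2.18 in Wt and 26.6% ± 0.734 in Tg7 islets at 12w (SD, n = 3). At 12w the Tg7 libraries ranged from 26.0% to 27.4% and the Wt libraries from 18.6% (replicate 4) to 22.9%. With all libraries the summed integrin level did not separate the genotypes, at 125 ± 27.4 CPM per kb in Wt and 126 ± 4.94 in Tg7 islets at 12w. That of laminins was 25.5 ± 3.04 in Wt and 33.7 ± 0.393 in Tg7 islets. The overlap of the integrin sums rested on Wt 12w replicate 4, at 156 CPM per kb. The other Wt libraries had 112 and 106 CPM per kb, below all Tg7 libraries (121 to 131). The 2w count of integrins moved when single libraries were left out: it was 2, 3 and 2 without Wt 2w replicates 1, 2 and 3, 3 without Tg7 2w replicate 1, and 9 without Wt 12w replicate 4. At 12w it was 5 when Wt replicate 1 or Tg7 replicate 2 of that age was left out, and 11 without Wt 12w replicate 4. Without that library Itga3 (0.51, adjusted p = 0.0137), Itga6 (0.35, adjusted p = 0.0227), Itgb1 and, among laminins, Lama3 (0.78, adjusted p = 0.0406) were also called higher at 12w. The laminin count at 12w was between 4, without Tg7 12w replicate 2, and 8, without Tg7 2w replicate 3. The share of all tested genes called in these fits is not given here, so such moves cannot be read as particular to the families.

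The other genes of the pathway came from hand-written lists. These were chosen with earlier results of these data known, so their shares beside all tested genes are descriptive only. Of 24 basement membrane partners of laminins, 23 were tested, and 15 rose and 1 fell at 12w (against 12.5% and 11.2% of all tested genes), with a median log2 fold change of 1.05 against −0.01 in all tested genes. At 2w, 3 of them were called (13%, against 10.6% of all tested genes), 2 higher and 1 lower. With library size alone, where the median of all tested genes was 0.19 at 2w, 6 were called higher and 0 lower at that age. Fbln1 (2.76 ± 0.35, adjusted p = 8.02e-05) and Fbln2 (2.73 ± 0.30, adjusted p = 2.4e-05), matrix fibulins that bind laminin networks, had the largest rises. The lowest values among those called were Tinagl1 at 0.75 ± 0.21 and Fras1, which fell by 0.67 ± 0.23. Of 19 other integrin ligands, 5 rose at 2w and 12 at 12w, against 6.07% and 12.5% of all tested genes, and none fell. They included Vcam1, the ligand of α4β1, at 2.85 ± 0.61 (adjusted p = 0.00403) and Vtn, vitronectin, the ligand of αvβ3 and αvβ5, at 2.59 ± 0.25 (adjusted p = 8.06e-06). The smallest called rises at 12w were those of Thbs1 at 1.21 ± 0.21 and of Tgfb1 at 0.51 ± 0.16.

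Of 11 membrane partners of integrins and other laminin receptors, 3 changed at 2w and 7 at 12w, 6 up and 1 down, against 10.6% and 23.6% of all tested genes. With library size alone, where the median of all tested genes was 0.43 at 12w, all 7 called at 12w were higher. The tetraspanin Cd81 rose by 1.66 ± 0.16 and the syndecan Sdc1 by 1.48 ± 0.29 at 12w, Sdc2 rose by 0.40 ± 0.12, and Slc3a2, the heavy chain of amino acid transporters that binds β1 integrins, fell by 0.96 ± 0.24. Of the 32 adaptors and kinases on the cytoplasmic side of integrins, 3 changed at 2w (9.38%, against 10.6% of all tested genes) and 5 at 12w (15.6%, against 23.6%), 3 up and 2 down, with a median of −0.01 on the log2 scale at 12w. Parvb, a parvin, rose by 1.06 ± 0.17 and Tenc1, a tensin, by 0.73 ± 0.16, whereas Actn4, an α-actinin, fell by 0.64 ± 0.11 and Vcl, vinculin, by 0.82 ± 0.17 at 12w. With library size alone, 12 of the 32 were called at 12w and all of these were higher, with the median of all tested genes again at 0.43.

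Markers of vascular and stromal cells were also higher in Tg7 islets at 12w. The marker lists, too, were chosen with earlier results of these data known. The marker counts here stand beside 10.6% of all tested genes called at 2w (6.07% higher and 4.55% lower). At 12w that share was 23.6% (12.5% higher and 11.2% lower). Of 10 endothelial markers none was called at 2w, where 1 had an unadjusted p under 0.05 in edgeR and DESeq2 called 0, and 9 rose at 12w, with log2 fold changes from 0.60 in Flt1 to 1.11 in Plvap, while Emcn was at 0.32 (adjusted p = 0.257). Their summed level was 425 to 551 CPM in Wt and 861 to 921 CPM in Tg7 islets at 12w, and 961 to 1225 CPM in Wt and 1071 to 1184 CPM in Tg7 islets at 2w. Of 8 stellate cell, pericyte and fibroblast markers 3 rose at 2w and 7 at 12w, up to 3.81 in Lum. Their sum was 74.2 to 138 CPM in Wt and 221 to 228 CPM in Tg7 islets at 12w, and 218 to 279 CPM in Wt and 229 to 312 CPM in Tg7 islets at 2w. As for Lama5, Lamb1, Lamb2 and Lamc1, the levels of both marker lists were lowest in Wt islets at 12w. At 12w Lama5 rose by 2.30, more than any of the endothelial markers and less than Lum and Dcn (3.55). Of 5 Schwann cell markers Sox10 rose at 12w (25% of the 4 tested), and of 7 ductal markers Muc1 did (16.7% of the 6 tested). Both shares were near or below that of all tested genes. Of 7 acinar markers 6 were tested and none was called at either age, with 4 at an unadjusted p under 0.05 at 2w and 0 at 12w in edgeR, and 1 and 0 calls in DESeq2, and their sum was 20.7 to 26.1 CPM in Tg7 against 9.61 to 11.8 CPM in Wt islets at 2w. Among 4 mesothelial markers only Msln was tested, and it fell at both ages. The only tested platelet marker of 5, Gp1bb, rose at both ages, while Gp1ba had no count. Of 5 neutrophil markers only Csf3r was tested, and it was not called (−0.21 at 2w and 1.08 at 12w). Neither of the 2 tested B lymphocyte markers was called in edgeR, where 1 had an unadjusted p under 0.05 at each age and DESeq2 called 1 at each. None of the 8 T and NK lymphocyte markers passed the filter. The 8 islet endocrine markers summed to at least 91127 CPM in every library, and 3 of them fell in Tg7 islets at each age, among them Ins1 and Ins2, while 1 rose at 2w. The part of these cell types in the changes of integrins and laminins was not tested.

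**Figure D5:**
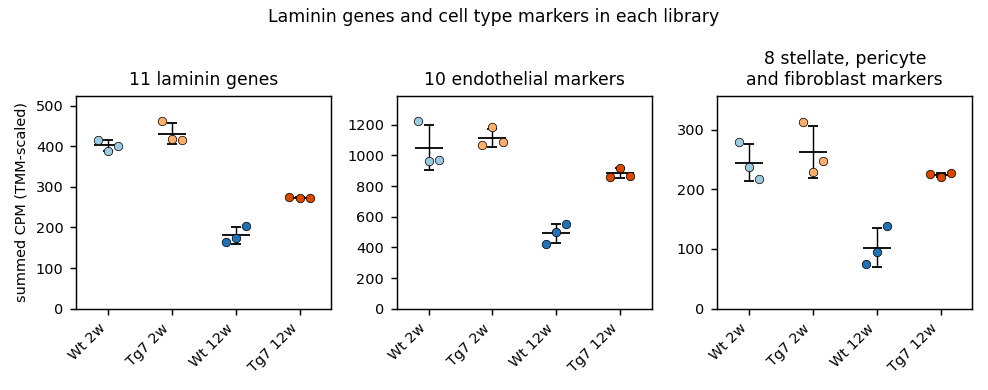
Summed level (y axis, CPM after TMM scaling) of the 11 laminin genes, the 10 endothelial markers and the 8 stellate cell, pericyte and fibroblast markers in each library, with the mean and SD of 3 libraries per group. In all 3 sums the Wt libraries at 12w are the lowest, and no Tg7 library overlaps with them.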

How the data were processed

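Islet RNA from pools of male Tg7 and Wt mice at 2w and 12w was extracted with Trizol, and the NEB Ultra II kit was used for library preparation. Per the submitters' processing notes, base calls were made with bcl2fastq 2.20.0, reads were trimmed with Trimmomatic, aligned to mm9 (NCBIM37) with TopHat2 2.0.11 and counted per gene with featureCounts. The authors deposited raw, unnormalised counts per Ensembl gene for each library. Whether reads were counted by strand is not stated. Of 37991 genes, 786 had no symbol in the annotation and were tested without a name.

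Counts were filtered with filterByExpr (minimum count 10, minimum total 15), scaled with TMM factors and fitted with 4 group means in edgeR 4.0.16 (R 4.3.3, limma 3.58.1) by the quasi-likelihood test. P values were adjusted by Benjamini-Hochberg over all 15961 genes tested, at a threshold of 0.05, for 5 contrasts: genotype at 2w, genotype at 12w, the difference of these effects, and age in each genotype. The common biological coefficient of variation was 0.212. Standard errors (SE) are those of the log2 fold change. Levels per kilobase were divided by the length of all annotated exons. Ratios of genes were compared with exact permutation tests, and counts of genes below the filter carry exact 95% intervals, which cover counting error only. In simulated counts with 200 changed genes among 15961, 57% of 2-fold and 87% of 4-fold changes were found for genotype at 2w, 56% and 82% at 12w, and 20% and 66% for the difference of the effects. Far fewer genes were changed there than were called for genotype in the data (10.6% at 2w and 23.6% at 12w). The shares found for genotype therefore need not hold here. Alternatives were DESeq2 1.42.0, library size alone, DESeq2's size factors in edgeR, no filter on low counts, a replicate block and each library left out in turn. A group then left with 2 libraries shared the spread of the others. Each fit without 1 library repeated the filter, the scaling and the adjustment, so a call near the threshold could be lost while its estimate stayed. Figures were drawn with matplotlib 3.10.9.

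The members and lists were chosen with earlier results of these data known. Every member called for genotype or for the difference of the effects is given with the values of its libraries, as is the most abundant member of each family per kilobase. Of each of the 4 pathway lists the 2 called genes with the highest and the 2 with the lowest log2 fold change at 12w are named. Marker lists covered endothelial cells, stellate cells with pericytes and fibroblasts, macrophages, T and NK lymphocytes, B lymphocytes, neutrophils, platelets, ductal, acinar, Schwann, mesothelial and islet endocrine cells, and the marker genes named with values were picked after their values were seen. Matches to the miR-7 seed were looked for in all 3′UTRs of the annotation. The mature miRNA was not analysed here, and the values of 1 member are not reported here.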

Additional observations from a re-analysis of the deposited data

Results flagged for a closer look

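The effect of genotype differed between the ages for 2 members by the interaction test in edgeR. For Lama5 the log2 fold change at 12w exceeded that at 2w by 2.07 (adjusted p = 7.4e-05), with all 3 Tg7 libraries above all 3 Wt libraries at both ages. For Itga5 the difference was 0.99 (adjusted p = 0.0289), and it was not called in 8 of the 12 fits without 1 library. No explanation of either was tested.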

How the results depend on the processing

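The calls of Itgb3 at both ages, of Itga5, Itga7, Itgav, Lama5, Lamb1 and Lamb2 at 12w, and of the difference for Lama5 kept their direction and their side of the threshold in all 5 other settings and without any single library. No called member changed direction. Of the 122 member results that were not called, 27 were called in at least 1 alternative, and 46 took the other sign in at least 1, of which 0 were called. Laminins gave 0 calls at 2w in every fit. Leaving out single libraries gave 2 to 9 called integrins at 2w (6 with all libraries), 5 to 11 at 12w (8) and 4 to 10 for age in Tg7 islets (6). For the difference of the effects it gave 0 to 3 (1), while DESeq2 gave 3, no filter 2 and the replicate block 3. For all counts of this section, the share of all tested genes called in the same fit is not given here.

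At 2w the adaptors and kinases (3 called) numbered 6 in DESeq2, 6 with library size alone, 5 without the filter, 7 with the replicate block and 1 to 7 without single libraries. The basement membrane partners (3) numbered 8, 6 with library size alone, 7 with the block, and 1 to 8, the membrane partners (3) 5 in DESeq2, 5 with library size alone, 5 without the filter, and 1 to 5, and the other ligands (5) 1 to 7. At 12w the adaptors (5) numbered 12 with library size alone. The highest of these integrin counts at 2w, at 12w and for age in Tg7 islets came without Wt 12w replicate 4, and the cause was not tested.

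Pairing by replicate number was not visible: the correlations of the deviations of same-numbered libraries lay between −0.167 and −0.0112. With 3 libraries per group, these cannot exclude a small shared effect, and the main fit used no pairing. With the replicate block 7 integrins were called at 2w, 12 integrins and 5 laminins at 12w, and the call of Lamc3 was lost (1.33, adjusted p = 0.152). Wt 12w replicate 4 has no Tg7 library of its number. With 3 pools per group and 20% of simulated 2-fold differences between effects found, absent calls of that contrast do not show equal effects.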
